A study of Mus musculus with 6 samples.

Results

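Fgf, Hedgehog and Notch signalling genes were examined in RNA-seq values from mouse embryos with and without lnc956, a long noncoding RNA. The members were all genes of the deposited table whose symbol belongs to the Fgf ligand and Fgf receptor, Sprouty, Etv, Gli, Patched, Notch, Delta-like, Jagged, Hes or Hey families, together with Ihh, Smo, Hhip, Gas1, Boc, Cdon and the fringe genes Mfng and Rfng. The rule used names alone and found 37 of the 7101 genes in the table. Of these, 14 were Fgf pathway genes, 10 were Hedgehog genes and 12 were Notch genes. The remaining gene, Fgfr1op2, matches by its name only. It is called after a human gene fusion with FGFR1 and encodes no part of the receptor pathway. GENCODE M21 holds 72 protein-coding genes that match the same rule. The other 35, among them Shh, Fgf8, Fgfr2, Gli1, Notch2, Dll4 and Hes5, are absent from the table. Statements on members below therefore cover only part of each pathway, and whether the absent genes differed between the genotypes is unknown.

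All samples were of the C57BL/6N strain, taken at mid-gestation (E12.5). Of 6 libraries, 3 were labelled wild type and 3 lnc956 knockout, and every library was labelled as embryo. How the knockout allele was made, and whether embryos were pooled or came from separate litters, could not be read from the labels. The p-values therefore measure only the spread between these samples, which may be technical.

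In Fgf signalling, secreted ligands bind receptor tyrosine kinases and activate the MAP kinase cascade, which induces Etv transcription factors and the Sprouty inhibitors that dampen the same cascade. In Hedgehog signalling, a ligand bound to Patched and its co-receptors releases Smoothened, which changes the activity of the Gli transcription factors. In Notch signalling, ligands on one cell cause cleavage of the Notch receptor on its neighbour, and the freed receptor fragment acts with the DNA-binding protein RBPJ to switch on Hes and Hey repressor genes. All these pathways pattern the neural tube, limbs and somites of the embryo at mid-gestation. Fgf and Hedgehog signals also act between the cells of the pregnant uterus, and Notch signals act in blood vessels.

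Promoter windows of a feedback or target gene of each pathway are shown, since these genes are read as outputs of the signals and their levels are described further on. The windows run from 250 bases before to 50 bases after a gene's start and come from RefSeq on GRCm38.p6, which holds at least 1 window for 29 of the 37 members. Capitals mark a match, on either strand, to the motif searched, which was GTGGGAA for RBPJ in the Notch target Hey2, CCGGAA for ETS factors such as Etv4 and Etv5 in the Fgf feedback gene Spry2, and GACCACCCA for Gli factors in the Hedgehog receptor and target gene Ptch1. The Hey2 window lies at chr10:30842734-30843033, the Spry2 window at chr14:105896770-105897069 and the Ptch1 window at chr13:63565686-63565985, each on the minus strand.
Hey2: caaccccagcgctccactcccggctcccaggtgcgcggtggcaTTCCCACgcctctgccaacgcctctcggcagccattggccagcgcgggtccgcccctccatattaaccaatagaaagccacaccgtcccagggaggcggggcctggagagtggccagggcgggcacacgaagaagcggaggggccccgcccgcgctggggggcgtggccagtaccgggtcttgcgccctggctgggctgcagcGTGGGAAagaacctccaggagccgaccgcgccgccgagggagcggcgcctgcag
Spry2: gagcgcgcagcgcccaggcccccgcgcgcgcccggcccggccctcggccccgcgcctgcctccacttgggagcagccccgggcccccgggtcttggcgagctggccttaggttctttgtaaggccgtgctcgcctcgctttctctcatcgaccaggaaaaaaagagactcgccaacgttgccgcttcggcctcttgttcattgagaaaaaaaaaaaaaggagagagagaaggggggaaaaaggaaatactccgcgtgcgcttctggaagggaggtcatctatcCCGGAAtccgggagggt
Ptch1: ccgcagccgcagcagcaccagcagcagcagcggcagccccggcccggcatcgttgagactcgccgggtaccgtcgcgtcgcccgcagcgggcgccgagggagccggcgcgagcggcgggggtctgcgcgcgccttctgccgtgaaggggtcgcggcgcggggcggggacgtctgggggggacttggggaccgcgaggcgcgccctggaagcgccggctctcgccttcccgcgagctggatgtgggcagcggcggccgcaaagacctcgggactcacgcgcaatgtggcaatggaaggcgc

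The Hey2 window held 2 RBPJ matches and was the only 1 of the 35 member windows with any, against 6.38% of all 32851 windows. Hes1, Hey1 and Heyl had no window, so their promoters were not searched. The ETS letters were present in 5 member windows, those of Fgfr4, Fgfrl1, Hes6, Rfng and Spry2, which is 14.3% of the member windows against 14.9% of all windows. The Gli letters were in 0 member windows and in 0.253% of all windows. These matches describe letters and not bound sites, and none of the motifs contains another.

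The values were treated as FPKM, although the header of the table names no unit. FPKM divides fragment numbers by transcript length and library size, so under that reading levels can be set side by side between genes. A change is the knockout mean minus the wild-type mean of log2(FPKM + 1), which shrinks the changes of genes at low levels so that the order of changes depends on the added 1, and means are given ± SD with n = 3 in each group. Relative depth within a genotype was estimated from the spacing of low values. The search allowed only ratios near 1, so a large difference in depth could not have been found. Within that limit, estimated depth was 0.93 and 1.06 times that of replicate 1 in wild-type replicates 2 and 3. In knockout replicates 2 and 3 it was 1.08 and 1.03 times. The table looks selected for genes that differ between the genotypes, since in 95.6% of its genes the wild-type and knockout values did not overlap. The level of lnc956 was not analysed here, and the genotype of each library is the labelled one.

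The markers of embryonic tissues went against the embryo label in all 3 knockout libraries. Over all genes tested, 49.2% were lower and 47.2% higher in knockout. The table held 9 of 14 listed markers of neurons, 6 of 10 of neural progenitors and 12 of 15 of muscle and heart. It held 13 of 14 for limb and craniofacial mesenchyme, 11 of 12 for red cells, 21 of 24 for placenta and decidua and 9 of 14 for endothelium. Summed FPKM over the neuron markers was 751 to 793 in wild type and 5.96 to 21.3 in knockout, with 9 of 9 tested genes lower. The corresponding sums were 349 to 428 and 1.97 to 3.22 for neural progenitor markers (6 of 6 lower), 669 to 930.4 and 17.6 to 29.0 for muscle and heart markers (12 of 12 lower), and 323 to 386 and 12.9 to 17.6 for limb and craniofacial mesenchyme markers (13 of 13 lower). Red cell markers summed to between 20960 and 29179 in wild type and between 202 and 817 in knockout (11 of 11 lower). Placenta and decidua markers summed to between 28.3 and 41.2 in wild type and between 34443 and 49744 in knockout, and 19 of 19 tested were higher. Endothelial markers summed to between 115 and 138 in wild type and between 614 and 725 in knockout, with 7 of 9 higher and Emcn and Egfl7 not past the threshold. No marker gene of these lists was at 0 in all 3 knockout libraries. The same held for every gene of the table, so it says nothing about the markers. Since all 3 libraries showed this, no comparison could be made without them, and the part of tissue content in the differences below was not tested. In bulk samples such as these, fewer cells of a type and less RNA per cell cannot be told apart.

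Nearly all members of the 3 pathways, as far as the table held them, were lower in the knockout libraries. The exceptions were the ligand gene Fgf2 and the receptor gene Fgfr1. Of the 37 members, 34 reached 1 FPKM in at least 3 libraries and were tested. With limma and an adjusted p under 0.05, 31 fell and 3 rose, the third being Fgfr1op2. Over all 6487 genes tested, 49.2% fell, 47.2% rose and 96.4% passed in either direction, so passing the threshold was common to the table and says little about the members. The median log2 change, given as a description, was −2.16 over the tested members and 0.38 over all genes tested. Of the tested members, 12 reached 1 FPKM in wild-type libraries alone and Fgf2 in knockout libraries alone. These members entered the test through the group in which they were higher, so their calls and p-values are a description only. Among the 12 were Dll1, Dll3, Etv1, Etv4, Fgf9, Fgf10, Fgf11, Fgfr4, Gli2, Hey2 and Heyl, whose values are given below. All 37 members, including the untested Fgf14, Ihh and Hhip, had groups that did not overlap, against the 95.6% of the whole table given above.

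**Figure D1:**
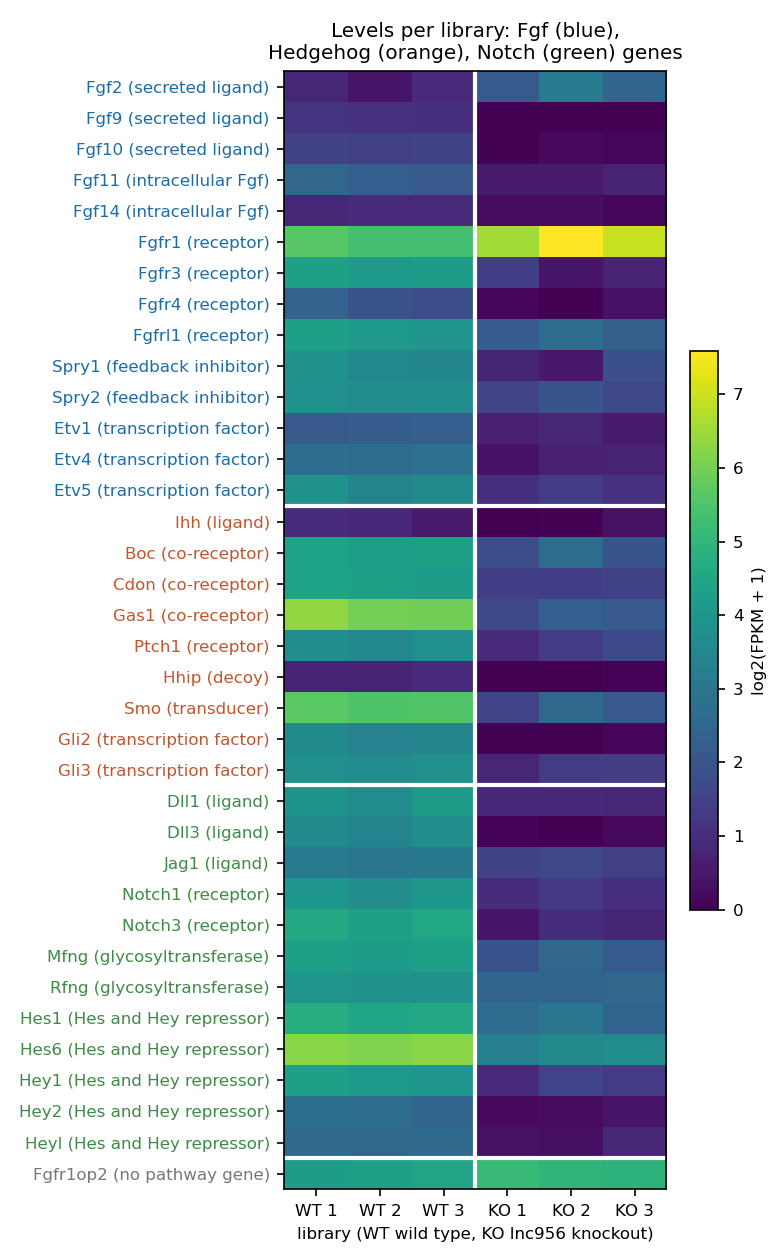
Level of the members named in the text in each library as log2(FPKM + 1), with colour from dark (low) to yellow (high). Columns are 3 wild-type (WT) and 3 knockout (KO) libraries and rows are grouped by pathway. Fgfr1, Fgf2 and Fgfr1op2 are brighter in knockout, where Fgfr1 is the brightest row, and all other rows are darker there. In wild type the Gas1 and Hes6 rows are the brightest.

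The receptor gene Fgfr1, which encodes the Fgf receptor of mesenchyme and many stromal cells, was the most abundant member in every knockout library. Values are given in the order of replicates 1, 2 and 3 here and below. It stood at 47.7, 39.8 and 39.1 FPKM in wild type and at 92.1, 191.9 and 123 FPKM in knockout. Every knockout library was above every wild-type library, and knockout replicate 2 was the highest. The means were 42.2 ± 4.78 and 136 ± 51.0 FPKM, a 3.22-fold difference (log2 change 1.60, SE 0.26, limma adjusted p = 0.000656). Quantile normalization gave a log2 change of 0.96, still past the threshold.

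The other receptor genes moved the opposite way. Fgfr3, a receptor gene of cartilage and neural progenitors, stood at 18.8, 15.8 and 17.3 FPKM in wild type and at 1.67, 0.383 and 0.685 FPKM in knockout (log2 change −3.31, SE 0.25, adjusted p = 1.13e-05). Fgfrl1, which encodes a receptor without a kinase domain, stood at 18.4, 15.9 and 14.6 FPKM and at 3.50, 5.37 and 3.89 FPKM (log2 change −1.73, SE 0.18, adjusted p = 5.88e-05). Their groups were far apart, and in knockout Fgfr3 was highest in replicate 1 while Fgfrl1 was highest in replicate 2. Fgfr4, a receptor gene of muscle precursors and liver, averaged 3.18 ± 0.965 FPKM in wild type and was at 0.103, 0 and 0.282 FPKM in knockout replicates 1 to 3 (log2 change −1.87).

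Within a library, the share of Fgfr1 in the summed FPKM of these receptor genes does not depend on how the libraries are scaled. The wild-type shares of Fgfr1 were 53.4%, 53.5% and 53.2%, and its knockout shares 94.6%, 97.1% and 96.2%. Fgfr3 went from 22.0% ± 1.36 to 0.814% ± 0.798 and Fgfrl1 from 20.6% ± 0.748 to 3.12% ± 0.445. The wild-type shares of Fgfr1 differed among themselves by less than a percentage point, and the knockout shares lay far outside them. An exact permutation test of 3 against 3 cannot go below p = 0.1, so no test of these shares is given.

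Among the secreted ligands, Fgf2 rose and Fgf9 and Fgf10 fell. Fgf2, a ligand made by many stromal and vascular cells, stood at 0.748, 0.345 and 0.91 FPKM in wild type and at 3.46, 7.59 and 4.61 FPKM in knockout (log2 change 1.86, SE 0.26, adjusted p = 0.000271). The means differed 7.82-fold, and as for Fgfr1 the highest library was knockout replicate 2. Fgf2 shares 640 exonic bases with Nudt6, a gene on the opposite strand, in GENCODE M21 (Fgf2 at chr3:37348346-37410108 in GRCm38). Nudt6 rose as well, from 1.95 ± 0.37 to 4.62 ± 0.861 FPKM (log2 change 0.93, adjusted p = 0.00121), and without strand information the reads from the shared stretch, 640 of the 6782 exonic bases of Fgf2, cannot be told apart. Fgf10, the mesenchymal ligand required for limb and lung buds, had a wild-type mean of 1.78 ± 0.0464 FPKM and a knockout mean of 0.0945 ± 0.0573 (log2 change −1.34). Fgf9, a ligand of lung, gonad and skeleton, averaged 1.11 ± 0.108 and 0.0285 ± 0.00593 FPKM (log2 change −1.04). Both ligands were low already in wild type, and quantile normalization gave log2 changes of −0.77 for Fgf10 and −0.60 for Fgf9.

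Fgf11 and Fgf14 encode Fgf homologues that are not secreted and act inside neurons, where Fgf14 binds sodium channels. Fgf11 had a wild-type mean of 3.94 ± 0.695 FPKM and a knockout mean of 0.543 ± 0.14 (log2 change −1.67, adjusted p = 2.06e-05; −0.98 under quantile normalization). Fgf14 was under 1 FPKM in every library and was not tested. It averaged 0.846 ± 0.0849 and 0.148 ± 0.0645 FPKM.

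The Sprouty and Etv members, known as feedback and target genes of Fgf signalling, all fell. Outside the member families, as described below, Dusp5 rose while Dusp7, Spred1, Spred3 and Il17rd fell. Over all tested genes, 49.2% fell and 47.2% rose. The Sprouty gene Spry2, whose window is printed above, stood at 13.3, 11.8 and 12.1 FPKM in wild type and at 1.97, 2.89 and 2.14 FPKM in knockout (log2 change −2.02, SE 0.16, adjusted p = 1.43e-05). Spry1 stood at 13.6, 10.7 and 10.2 FPKM and at 0.737, 0.431 and 2.64 FPKM (log2 change −2.57, SE 0.34, adjusted p = 0.000205). Knockout replicate 3 held the most Spry1, though still well under any wild-type library. Of the Etv factors, Etv5 stood at 13.6, 9.75 and 11.3 FPKM in wild type and at 1.01, 1.52 and 1.11 in knockout (log2 change −2.50, adjusted p = 7.34e-06). Etv4 stood at 5.6, 5.42 and 6.17 FPKM and at 0.285, 0.615 and 0.667 FPKM (log2 change −2.15, adjusted p = 6.25e-06). Etv1, the related factor of some neurons and interstitial cells, had a wild-type mean of 3.6 ± 0.264 FPKM and a knockout mean of 0.613 ± 0.151 (log2 change −1.51, or −0.81 under quantile normalization). The knockout means of these 5 genes were 9.12% to 18.8% of their wild-type means, and that of Spry1 (11.1%) was 5.09% without knockout replicate 3.

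**Figure D2:**
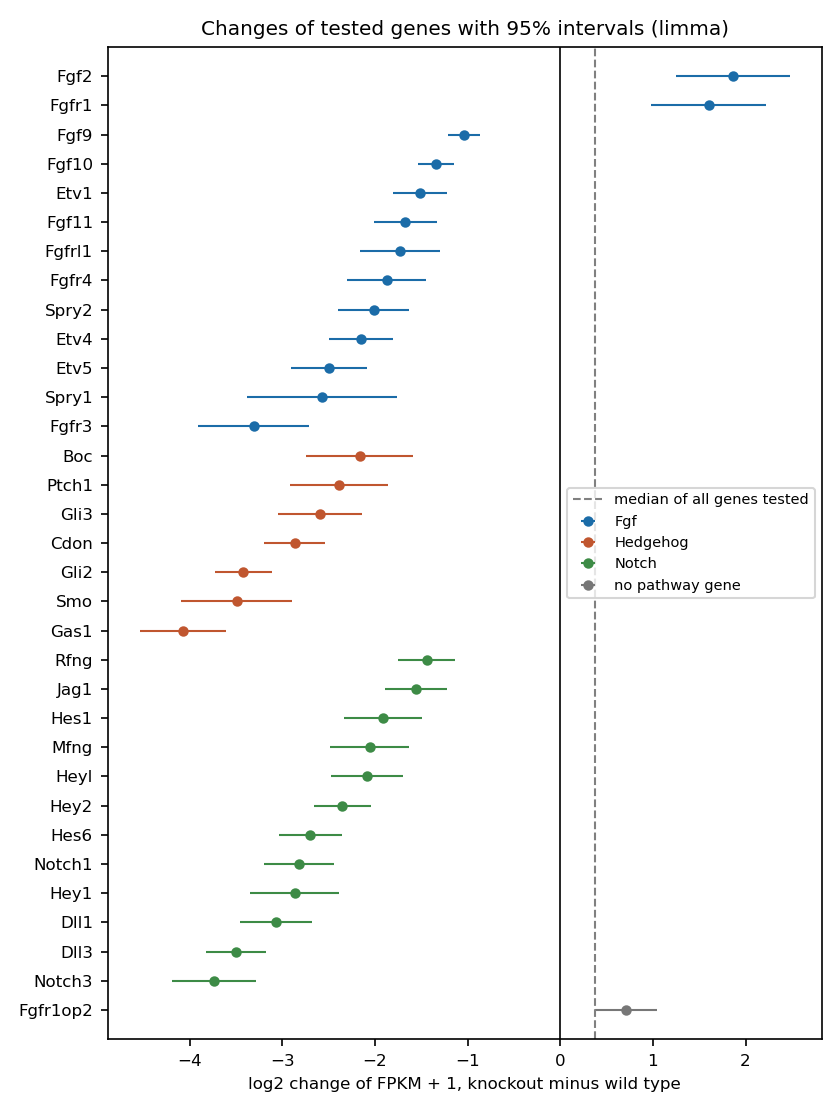
Log2 change of FPKM + 1, knockout minus wild type, of the tested members named in the text with 95% intervals from limma. Genes are sorted within each pathway, the solid line is 0 and the dashed line is the median of all genes tested (0.38). Fgf2 and Fgfr1 lie right of the dashed line and the genes that fell lie left of 0, from Gas1 (−4.07) to Fgf9 (−1.04). With 0.1 added in place of 1, Dll3 (−6.20), Gli2 (−6.13) and Notch3 (−4.85) lie below Gas1 (−4.42).

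Genes named for Fgf receptor signalling outside the member families moved both ways. Of 25 companion genes on a hand-made list, 12 were tested, of which 4 rose and 8 fell, with a median log2 change of −1.44, where 47.2% of all tested genes rose and 49.2% fell. The risers were Dusp5, a nuclear phosphatase of ERK, Map2k1, the kinase MEK1, Shc1, an adaptor, and Frs2, the docking adaptor of Fgf receptors (the last named after its values were seen). Dusp5 stood at 1.4, 1.22 and 1.27 FPKM in wild type and at 31.7, 26.8 and 19.8 FPKM in knockout (log2 change 3.54, adjusted p = 2.51e-06). Frs2 stood at 10.8, 10.4 and 11.7 FPKM and at 18.7, 41.2 and 28.3 FPKM (log2 change 1.28, adjusted p = 0.00242), with knockout replicate 2 highest, as for Fgfr1. Map2k1 and Shc1 changed by 1.09 and 0.90 on the log2 scale. Il17rd, an antagonist of Fgf receptor signalling, fell from 8.63 ± 1.1 to 0.637 ± 0.0345 FPKM (log2 change −2.55). Dusp7, Spred1 and Spred3, named after their values were seen, changed by −1.69, −1.63 and −1.18 on the log2 scale. Flrt2 and Flrt3, membrane proteins that bind Fgf receptors and guidance receptors, fell from 11 ± 1.33 to 0.377 ± 0.117 and from 11.1 ± 2.05 to 0.441 ± 0.277 FPKM.

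The Hedgehog members fell at every step from co-receptor to transcription factor, and none rose. All 8 tested members of the 10 fell, with a median log2 change of −2.73, where 49.2% of all tested genes fell. Gas1, a membrane-anchored co-receptor gene, was the most abundant of them in wild type. It stood at 79.3, 62.6 and 60.9 FPKM in wild type and at 2.22, 3.77 and 3.32 FPKM in knockout (log2 change −4.07, SE 0.20, limma adjusted p = 1.52e-06). Boc, a co-receptor gene of the immunoglobulin family, stood at 20.1, 17.6 and 18.9 FPKM and at 2.44, 5.43 and 2.91 FPKM (log2 change −2.17, SE 0.25, adjusted p = 8.53e-05). Its relative Cdon stood at 20.1, 18.6 and 17.2 FPKM and at 1.68, 1.64 and 1.74 FPKM (log2 change −2.87, SE 0.14, adjusted p = 1.5e-06). Boc and Cdon were thus near-equal in wild type, while in knockout Boc was the higher of the pair in every library. Boc held 18.04% ± 1.36 of the summed FPKM of the 3 co-receptor genes in wild type and 41.7% ± 7.33 in knockout, and Gas1 64.2% ± 1.88 and 37.2% ± 3.93, with no overlap for either. The share of Cdon overlapped between the groups, at 17.8% ± 0.997 and 21.1% ± 5.71.

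Smo, the transducer that Patched holds back, was the most abundant Hedgehog member after Gas1 in wild type. It stood at 49.6, 44.3 and 45.1 FPKM there and at 1.91, 4.87 and 3.31 FPKM in knockout (log2 change −3.50, SE 0.25, adjusted p = 9.03e-06). Ptch1, both receptor and target of the pathway, stood at 12.3, 10.7 and 13.1 FPKM in wild type and at 0.88, 1.49 and 2.27 FPKM in knockout (log2 change −2.39, SE 0.22, adjusted p = 3.11e-05). Knockout replicate 3 held the most Ptch1, and every knockout library was below every wild-type library.

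The Gli factors fell unequally. Gli2, the main activator, stood at 11.5, 9.38 and 10.1 FPKM in wild type and at 0.0384, 0.0142 and 0.105 FPKM in knockout (log2 change −3.42, SE 0.13, adjusted p = 7.78e-07). Gli3, the main repressor, stood at 13.1, 11.7 and 13.2 FPKM and at 0.745, 1.55 and 1.58 FPKM (log2 change −2.60, SE 0.19, adjusted p = 9.83e-06). Near-equal in wild type, they were far apart in knockout. Gli3 made up 53.4%, 55.4% and 56.6% of the sum of the pair among wild-type libraries and 95.1%, 99.1% and 93.8% among knockout libraries. Gli2 stood at 0.508% of its wild-type mean, and at 0.255% without knockout replicate 3. With every knockout value of Gli2 under 0.15 FPKM, these percentages are imprecise.

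The ligand Ihh, of cartilage, gut and uterine epithelium, and Hhip, a target gene whose product binds the ligands, were under 1 FPKM in every library and were not tested. Ihh averaged 0.744 ± 0.255 FPKM in wild type and was at 0, 0.0209 and 0.263 FPKM in knockout. Hhip averaged 0.728 ± 0.114 FPKM and was at 0.0393, 0 and 0.0492 FPKM in knockout.

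Other genes of Hedgehog signal transport, cilia and response fell alongside the members. On the hand-made list of 25 companion genes, 17 were tested, of which 16 fell and 1 rose, with a median log2 change of −1.71, where 49.2% of all tested genes fell and 47.2% rose. Under quantile normalization Hhat (adjusted p = 0.112) and Scube2 (adjusted p = 0.193), named after their values were seen, no longer passed. Ccnd1, a cyclin gene that responds to many growth signals, fell from 82.3 ± 7.96 to 2.72 ± 0.354 FPKM (log2 change −4.48, adjusted p = 5.47e-07). Scube3, of a family that aids ligand release, fell from 12.2 ± 1.43 to 0.0648 ± 0.054 FPKM. Foxf2, a mesenchymal factor gene that responds to Hedgehog, fell from 6.22 ± 0.397 to 0.166 ± 0.171 FPKM. The riser, Smurf1, a ubiquitin ligase gene that acts mainly in other pathways, changed by 0.49 on the log2 scale (adjusted p = 0.0143), 13.9 ± 1.06 against 20.0 ± 2.53 FPKM. That call ended without wild-type replicate 2 (adjusted p = 0.0653) or wild-type replicate 3 (0.0516).

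All 12 Notch members fell, with a median log2 change of −2.53, where 49.2% of all tested genes fell and 96.4% passed in either direction. Among the ligands, Dll1, active in somites and neural progenitors, stood at 14.4, 11.7 and 16.8 FPKM in wild type and at 0.795, 0.823 and 0.772 FPKM in knockout (log2 change −3.07, SE 0.17, limma adjusted p = 2.25e-06). Dll3, a divergent ligand that inhibits Notch within its own cell, stood at 11.1, 9.77 and 12.2 FPKM and at 0.0518, 0 and 0.125 FPKM (log2 change −3.50, SE 0.14, adjusted p = 8.05e-07). Jag1, a ligand of vessels and many epithelia, stood at 7.94, 6.9 and 7.46 FPKM and at 1.77, 2.14 and 1.69 FPKM (log2 change −1.56, SE 0.14, adjusted p = 2.57e-05). Dll1 was the highest of these ligand genes in every wild-type library and Jag1 in every knockout library. Jag1 made up 22.9% ± 2.07 of their summed FPKM in wild type and 68.4% ± 3.49 in knockout.

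Notch3, the receptor gene of vascular smooth muscle and neural progenitors, stood at 22.8, 19 and 22.3 FPKM in wild type and at 0.341, 1.01 and 0.728 FPKM in knockout (log2 change −3.74, SE 0.19, adjusted p = 1.81e-06). Notch1, the receptor gene of somites, neural tissue and endothelium, stood at 14.8, 12.4 and 15.1 FPKM and at 0.949, 1.41 and 1.04 FPKM (log2 change −2.82, SE 0.16, adjusted p = 2.72e-06). The order of the receptor genes turned over between the groups. Notch3 was above Notch1 in each wild-type library and below it in each knockout library, and the share of Notch1 in their sum was 39.7% ± 0.553 and 63.5% ± 8.71. The endothelial markers were higher in these same libraries, with 7 of 9 tested past the threshold, where 47.2% of all tested genes rose. Whether this bears on the receptor shares was not tested.

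The fringe genes encode glycosyltransferases that alter how Notch responds to its ligands, and they kept more of their level than most members. Rfng stood at 14.6, 13.9 and 13.6 FPKM in wild type and at 4.54, 4.42 and 4.65 FPKM in knockout (log2 change −1.44, SE 0.13, adjusted p = 2.58e-05). At 32.3% of wild type it was the highest of all members that fell. Mfng stood at 18.5, 16.9 and 18.5 FPKM and at 2.75, 4.63 and 3.44 FPKM (log2 change −2.06, SE 0.18, adjusted p = 2.31e-05).

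**Figure D3:**
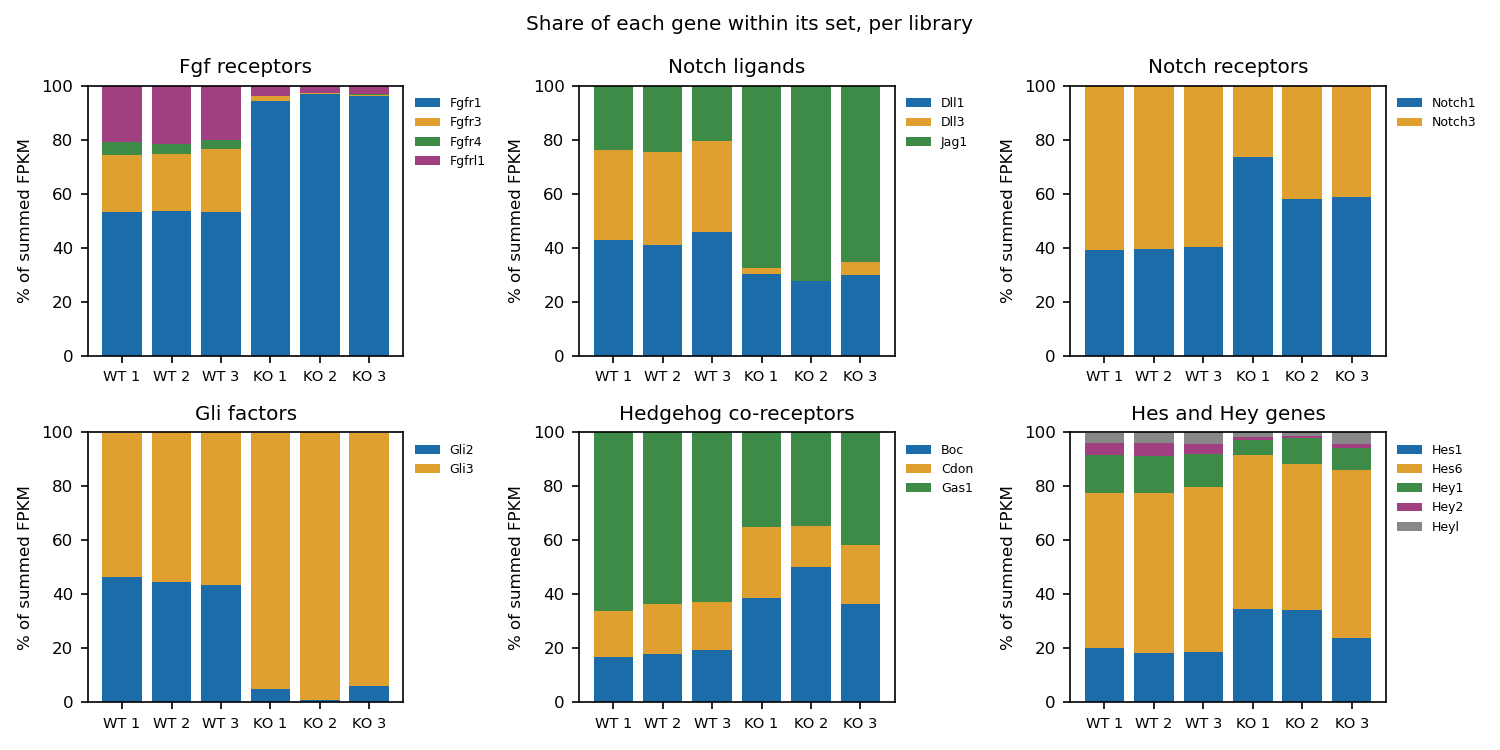
Share of each gene in the summed FPKM of its set, as a percent per library, for 3 wild-type (WT) and 3 knockout (KO) libraries. Only members in the table enter a set. Fgfr1, Jag1, Notch1, Gli3 and Boc take a larger share throughout the knockout libraries, without overlap, while the share of Hes6 overlaps between the groups.

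All 5 members of the Hes and Hey families fell, where 49.2% of all tested genes fell and 96.4% passed in either direction. Several of these genes, such as Hes1 and Hey1, are induced by Notch, whereas Hes6 encodes an antagonist of Hes1 that promotes neuronal differentiation. Hes6 had the highest wild-type mean of the members, within the spread of Gas1. It stood at 75.1, 69.1 and 74.3 FPKM there and at 8.77, 10.9 and 11.5 FPKM in knockout (log2 change −2.70, SE 0.15, adjusted p = 2.21e-06). Hes1 stood at 26.1, 21.6 and 22.8 FPKM and at 5.32, 6.9 and 4.45 FPKM (log2 change −1.91, SE 0.18, adjusted p = 3.15e-05). Hey1, a Notch target of vessels and somites, stood at 18.4, 16.1 and 14.8 FPKM and at 0.862, 1.9 and 1.5 FPKM (log2 change −2.87, SE 0.20, adjusted p = 7.79e-06). The knockout libraries lay close to one another for these 3 genes compared with their distance from wild type. Hey2, a Notch target of heart and arteries whose promoter window is printed above, stood at 5.74, 5.56 and 4.59 FPKM and at 0.152, 0.201 and 0.337 FPKM (log2 change −2.35, SE 0.13, adjusted p = 2.5e-06). Heyl, a target in smooth muscle and somites, averaged 4.94 ± 0.174 and 0.415 ± 0.304 FPKM (log2 change −2.09, adjusted p = 1.41e-05). Hes1 kept 23.6% of its wild-type mean and Hey2 4.34%. The share of Hes6 in the summed FPKM of these genes was 59.2% ± 1.8 in wild type and 57.8% ± 3.98 in knockout, with overlap, while the share of Hes1 was 19.1% ± 0.843 and 30.9% ± 6.08, without.

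Notch genes outside these families moved both ways. Of 32 on the hand-made list, 12 were tested, of which 5 rose, 6 fell and Psen2 did not pass (log2 change 0.60, adjusted p = 0.0697). The Psen2 call changed under both rescalings and without knockout replicate 1 (log2 change 0.89, adjusted p = 0.00417). Maml3, which rose, no longer passed without wild-type replicate 1 (adjusted p = 0.0506) or 2 (0.0599), and Maml2, which fell, no longer passed under quantile normalization (adjusted p = 0.0631). The median log2 change was −0.22, and over all tested genes 47.2% rose and 49.2% fell. Nrarp, a feedback inhibitor induced by Notch, fell from 27.4 ± 2.08 to 3.29 ± 0.493 FPKM (log2 change −2.73, adjusted p = 2.62e-06). Dner, a neuronal Notch-binding protein gene, stood at 11.5 ± 1.27 FPKM in wild type and at 0.0586, 0 and 0.0142 FPKM in knockout, and Dtx4 fell from 15.3 ± 1.68 to 1.5 ± 0.438 FPKM. Among the risers was Adam10, the gene of a protease that cleaves the receptor. It had a wild-type mean of 29.9 ± 2.46 FPKM and a knockout mean of 45.7 ± 2.69 (log2 change 0.60, adjusted p = 0.00305). That change lay near the median of all genes tested (0.38), and the Adam10 call ended under quantile normalization (log2 change 0.17, adjusted p = 0.294). Dtx3l, a ubiquitin ligase gene induced by interferon, rose from 0.85 ± 0.136 to 5.17 ± 0.77 FPKM (log2 change 1.73, adjusted p = 1.78e-05).

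**Figure D4:**
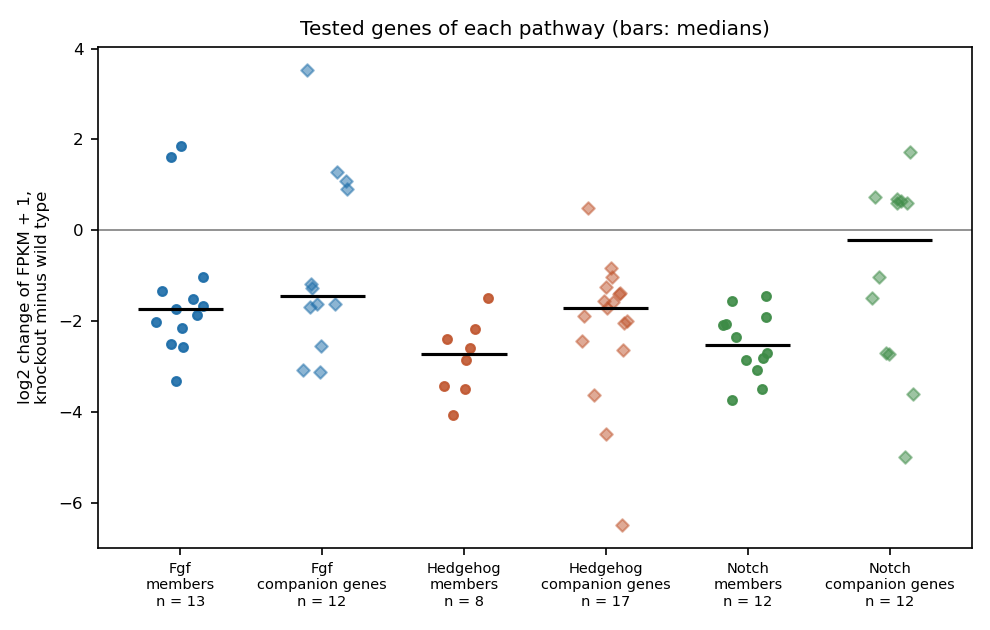
Log2 change of FPKM + 1, knockout minus wild type, of the tested members (circles) and the tested companion genes of the hand-made lists (diamonds) of each pathway, with bars at the medians. The Notch companion genes spread from Dtx3l (1.73) to below Dner (−3.61), with a median of −0.22, and all Notch members lie below −1.

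Members differed in how much of their wild-type level the knockout libraries held. Over the 31 that fell, the median was 9.12% of the wild-type mean, with a range from 0.508% (Gli2) and 0.536% (Dll3) to 26.1% (Fgfrl1) and 32.3% (Rfng). Without knockout replicate 3 the lowest values were 0.235% (Dll3) and 0.255% (Gli2). Every knockout value of Gli2 and Dll3 was under 0.15 FPKM, near the floor, so their percentages and order are imprecise. Over all 3191 genes of the table that fell, the median was 15.5%, with quartiles of 6.05% and 26.1%. By pathway the median was 10.5% for Fgf, 9.63% for Hedgehog and 8.52% for Notch. The neuron and neural progenitor markers stood at a median of 0.436% and 0.396%, limb and craniofacial markers at 2.48% and muscle and heart markers at 2.25%. The median of the red cell markers was 2.88%. The highest single marker stood at 3.16% for neurons, 2.85% for neural progenitors and 17.0% for limb and craniofacial mesenchyme. It stood at 8.58% for muscle and heart and 5.94% for red cells, so each list overlapped the range of the members that fell.

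The 3 knockout libraries did not hold equal amounts. The median over all 37 members was 6.75%, 11.5% and 11.6% of the wild-type mean in knockout replicates 1 to 3. Of the 31 members that fell, 17 were highest in knockout replicate 2, 13 in replicate 3 and 1, Fgfr3, in replicate 1. Over all genes that fell, replicate 2 was the highest for 30.4%, replicate 3 for 53.9% and replicate 1 for 15.7%. The median coefficient of variation of these 31 members was 9.62% among wild-type and 36.6% among knockout libraries, against 9.78% and 32.9% over all genes that fell.

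**Figure D5:**
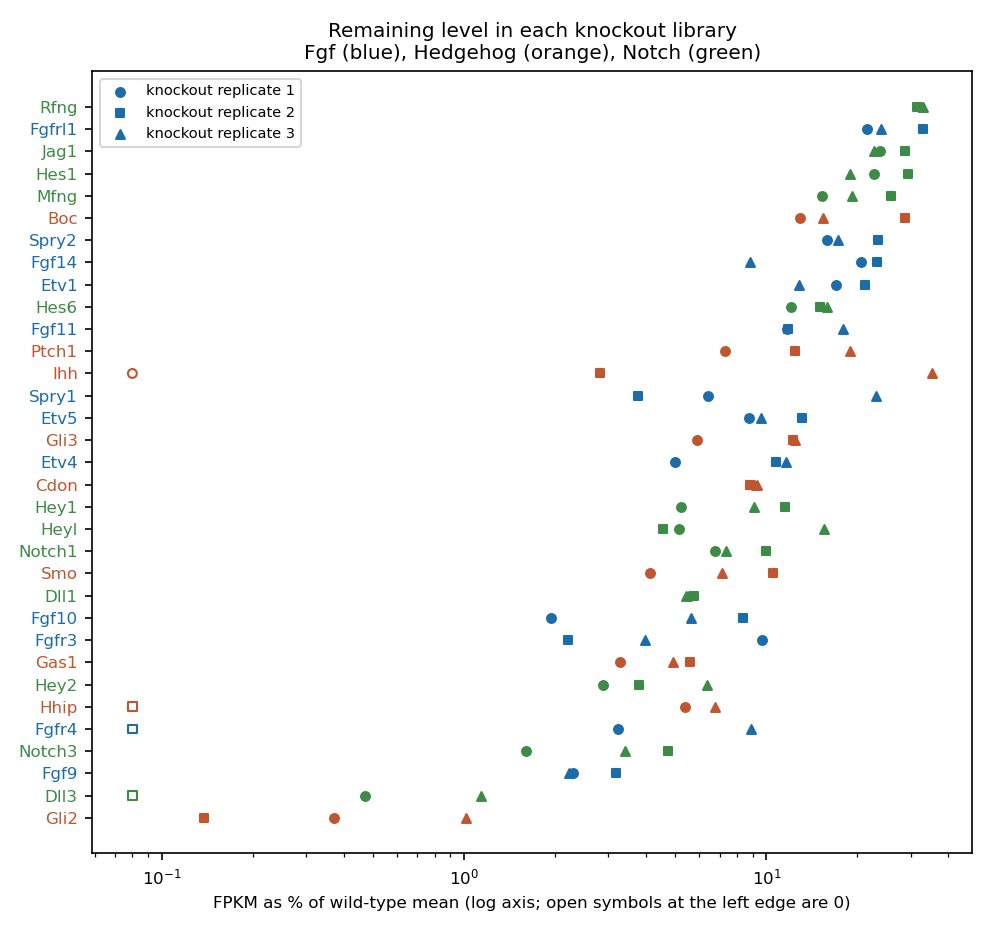
FPKM in each knockout library as a percent of the wild-type mean, on a log axis, for the pathway members named in the text other than Fgf2 and Fgfr1. Circles, squares and triangles are knockout replicates 1, 2 and 3, and open symbols at the left edge stand for 0. Rfng, Fgfrl1 and Jag1 sit highest, and Gli2 and Dll3 lowest. Ihh is at 0 in replicate 1 and at 35.3% in replicate 3.

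Changes of the 3 risers can also be set against the rest of the table. Relative to the median change of all genes tested, Fgf2 was higher by 1.48, Fgfr1 by 1.23 and Fgfr1op2 by 0.33 on the log2 scale. Fgfr1op2 stood at 16.9, 18.8 and 20.4 FPKM in wild type and at 34.5, 30.1 and 29.0 FPKM in knockout (log2 change 0.71, SE 0.14, limma adjusted p = 0.0018), and its call ended against a log2 change of 1. In GENCODE M21, 13 members share exonic bases with another gene, with the largest shared stretch on the opposite strand in each. Those of Notch1 (1068 bases), Fgfr3 (998), Dll1 (867), Spry1 (710), Fgf2 (640) and Gas1 (589) were the longest, so their values may include fragments of the partner.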

How the data were processed

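RNA-seq values of 6 libraries, 3 wild type and 3 lnc956 knockout, were taken from 1 deposited table of 7101 genes. Its values are treated as FPKM made by the authors: the header names no unit, and per the submitters' processing notes the tools were TopHat2 2.0.8 and Cufflinks 2.1.1, and the builds mm9 and mm10 both appear without a stated use. Total RNA was extracted with Trizol, per the labels' protocols. Read numbers, strandedness and the rule that chose the genes are not given in the sources used here, so no counting interval is given.

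Groups and replicate numbers came from the labels. Genes that reached 1 FPKM in 3 or more of the 6 libraries (6487, with 614 left out) were tested as log2(FPKM + 1) with limma 3.58.1 in R 4.3.3 (eBayes with trend and robust), two-sided, on genotype without covariates, with Benjamini-Hochberg adjustment over all 6487 genes, at a threshold of 0.05. The members and lists were chosen with earlier results of these data known. Members were named by pathway and role, with values in every library where a group mean reached 5 FPKM. Companion genes were named as the 3 of smallest p in each direction, plus those said to be chosen after their values were seen. Psen2, Maml2 and Maml3 were also named outside that rule, for a missed or unstable call. Some results on single genes are not reported here, though those genes stay in the counts. Scripts were tested on data made with known answers, over 6487 genes. Positions are from GENCODE M21 on GRCm38. Alternatives were pseudocounts of 0.1 and 5, other filters, trimmed-mean and quantile rescaling, other limma settings, a replicate block and each library left out.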

Additional observations from a re-analysis of the deposited data

How the results depend on the processing

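The direction of each of the 34 tested members was the same under every alternative that tested it, and 31 fell and 3 rose except in the following 3 settings. Against a log2 change of 1, 30 fell and 2 rose, as Fgf9 and Fgfr1op2 no longer passed (adjusted p = 0.411 for Fgf9). With a mean of at least 5 FPKM required, 23 members were tested, 21 lower and 2 higher. Without a filter 34 fell and 3 rose. Over all genes, 1447 were higher against a log2 change of 1 and 1801 were lower with the mean filter, where fewer genes were tested (4249). Leaving out 1 library at a time gave 31 members lower and 3 higher in each run, and between 2803 and 3099 genes higher and between 3183 and 3195 lower over the table. The median change of all genes was 0.38 as deposited, 0.68 with trimmed-mean rescaling and 0.01 with quantile normalization. Quantile normalization moved the log2 changes of 7 members by over 1.5 times, among them Fgfr1 to 0.96, Fgfr1op2 to 0.46, Etv1 to −0.81, Fgf9 to −0.60, Fgf10 to −0.77 and Fgf11 to −0.98, all 7 still past the threshold. Trimmed-mean rescaling moved Fgfr1op2 to 1.12. A pseudocount of 0.1 moved 12 members by that much and one of 5 moved 24, with no call lost. With the replicate number as a block, 31 members fell and 3 rose, and among all tested genes 3038 rose and 3192 fell. Deviations of same-numbered libraries had correlations across genes of −0.06, 0.08 and 0.11 for numbers 1 to 3. Those of differently numbered libraries ran from −0.13 to 0.06. All were small, and 3 libraries per group cannot tell whether a shared number marks a pair. Of the 41 tested companion genes, 15 no longer passed against a log2 change of 1. Depth in reads is unknown.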
